A study of Mus musculus with 14 samples.

Results

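The oxygen-response genes described here are 10 of the 17656 genes in the liver tables: Hif1a, Vegfa, Ndrg1, Adm, Bnip3, Egln1, Egln3, Ddit4, Ankrd37 and P4ha1. They were chosen by name as hypoxia genes, by a rule that uses no measured value, although earlier results of these data were known when the names were set. All 10 are listed in every table. The study asked how loss of YTHDF1, a reader of the m6A mark on RNA, changes hepatitis induced by concanavalin A (ConA), a plant lectin that activates T cells. Whole liver of 14 mice was sequenced, and the values are TPM, the share of a gene among all transcripts of a library after division by gene length.

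All mice were 8 weeks old, on the C57BL/6 background, and had liver taken 8 h after a tail vein injection. WT saline (n = 3) and KO saline (n = 3) mice received saline, and WT ConA (n = 4) and KO ConA (n = 4) mice received ConA at 8 mg/kg. KO stands for mice labelled Ythdf1 knockout (Ythdf1-/-), a deletion made with CRISPR/Cas9 and carried by every cell of the body, so hepatocytes and immune cells both lack the intact gene. No agent was given to all groups. The labels call the samples of a group biological replicates.

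Ythdf1 itself was measured in each library as a check of the labels. It had 12.03, 13.9 and 13.3 TPM in WT saline, 20.8, 18.4 and 18.6 TPM in KO saline, 25.6, 21.4, 18.7 and 20.3 TPM in WT ConA, and 25.9, 26.2, 15.5 and 21.3 TPM in KO ConA. The level was not lower in the libraries labelled knockout. In saline all KO values lay above all WT values, by 0.525 on the log2 scale (limma, adjusted p = 0.0181). A value over the whole gene does not show a deletion of part of it, so the genotype rests on the labels. WT saline replicates 2 and 3 lay closer together than any other pair of replicates. Taking the 100 genes with the widest spread in KO saline, the pair had a median absolute log2 ratio of 0.0857, whereas the other 17 pairs of replicates had 0.247 to 1.25. This choice of genes makes the KO saline pairs wide, at 1.08 to 1.25. Outside KO saline the widest pair had 0.655 (WT ConA replicates 3 and 4). Where averaging WT saline replicates 2 and 3 into 1 changes a call of a member or a count of a gene list, that value is given too. Hepatocyte markers were high in every library, and the 10 markers summed to at least 67385 TPM, the lowest value, found in KO ConA.

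Cells answer a shortage of oxygen through hypoxia-inducible factors (HIFs), in which an oxygen-regulated alpha subunit such as HIF-1α pairs with the constitutive partner ARNT. While oxygen is plentiful, prolyl hydroxylases encoded by the Egln genes mark the alpha subunit, and the VHL ubiquitin ligase then sends it for degradation. When oxygen falls, the alpha subunit persists and switches on genes of glycolysis, vessel growth, mitochondrial clearance and matrix synthesis, together with the hydroxylases themselves, which closes a feedback loop. The alpha subunit is therefore governed largely at the protein level, which these RNA values do not measure. Immune activation can raise Hif1a RNA through NF-κB. In the liver, oxygen declines from the portal to the central vein, and hepatocytes, endothelial cells and immune cells all use the pathway.

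HIF complexes are known to bind the core letters ACGTG and GCGTG. Promoters from RefSeq (GRCm38.p6) were at hand for 9 of the 10 genes, and the 250 bases before each start were searched on both strands, where the cores read CACGT and CACGC. The 4 windows below are shown because they belong to the gene with the largest rise after ConA (Adm), to the gene next to it across libraries (Ddit4), to the gene with the called interaction of genotype and ConA (Egln3), and to the gene that moved least (Bnip3). They lie at chr7:110627407-110627656 on the plus strand for Adm, chr10:59951771-59952020 on the minus strand for Ddit4, chr12:54203875-54204124 on the minus strand for Egln3, and chr7:138909507-138909756 on the minus strand for Bnip3. Each is written 5′ to 3′ towards the start, and capitals mark the cores on either strand.
Adm: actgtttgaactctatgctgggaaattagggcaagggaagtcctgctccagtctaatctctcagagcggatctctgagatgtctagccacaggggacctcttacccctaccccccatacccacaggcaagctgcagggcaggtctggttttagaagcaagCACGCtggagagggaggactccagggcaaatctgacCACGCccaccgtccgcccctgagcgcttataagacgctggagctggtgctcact
Ddit4: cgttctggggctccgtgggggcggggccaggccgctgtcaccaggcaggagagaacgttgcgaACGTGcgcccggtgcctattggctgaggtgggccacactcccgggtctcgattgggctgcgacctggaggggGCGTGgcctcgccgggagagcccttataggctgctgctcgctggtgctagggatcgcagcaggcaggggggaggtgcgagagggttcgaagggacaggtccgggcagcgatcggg
Egln3: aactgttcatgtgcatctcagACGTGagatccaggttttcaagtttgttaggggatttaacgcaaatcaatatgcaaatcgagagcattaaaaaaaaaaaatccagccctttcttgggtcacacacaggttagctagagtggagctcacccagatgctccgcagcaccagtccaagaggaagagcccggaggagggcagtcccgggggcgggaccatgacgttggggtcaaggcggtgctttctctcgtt
Bnip3: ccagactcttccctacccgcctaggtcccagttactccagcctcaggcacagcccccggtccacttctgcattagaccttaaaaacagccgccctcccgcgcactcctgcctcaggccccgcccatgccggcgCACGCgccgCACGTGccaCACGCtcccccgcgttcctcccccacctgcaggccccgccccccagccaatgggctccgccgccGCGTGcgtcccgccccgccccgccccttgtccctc

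The Adm window held 2 cores, at 90 and 54 bases before the start, and both were GCGTG read on the opposite strand. The Ddit4 window held ACGTG at 187 and GCGTG at 115 bases before the start, and the Egln3 window held a single ACGTG at 229 bases. The Bnip3 window held cores at 4 separate places, 117, 108, 99 and 35 bases before the start, and the place at 108 bases reads CACGTG, which matches ACGTG on both strands. ACGTG was present for 8 of the 9 genes with a promoter in the table and GCGTG for 7, and each of the 9 had at least 1 core when both Vegfa starts were counted. The Vegfa window at chr17:46032378-46032627 held 0 cores, and the one at chr17:46025164-46025413, inside the gene, held 2. These counts are per gene, while the shares that follow are per window. Of all 32851 promoter windows of the same length, 16.6% held ACGTG, 28.2% held GCGTG and 38.6% held either. Of the 17527 windows that belong to genes in the liver tables, 19.5% held ACGTG and 49.6% held either, so many genes outside this group carry the same letters. A match of 5 letters is a description of the window and not evidence of binding.

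After ConA, 8 of the 10 genes were called higher in WT liver and none was called lower, and all 10 were called higher in KO liver. Of all genes tested, 22% were called higher in WT and 33.9% in KO. Among the 8, Adm passed the filter on low values in WT through the ConA livers alone and so had to differ. The rises ranged from a small change of Bnip3 to a change of Adm by 2 orders of magnitude in mean TPM. Between genotypes, fewer genes differed: Adm, Ddit4 and Vegfa were called in saline, and Ndrg1 was called higher with ConA in KO than in WT. The response of Egln3 to ConA was called larger in KO than in WT. Each of these calls was lost in some alternative fits, with Ndrg1 called in 10 of 16 and Egln3 in 16 of 22. Differences were tested with limma on log2(TPM + 1) over all genes with TPM of 1 or more in at least 3 libraries of the fit (4 between the ConA groups), and calls were made where p, adjusted by the Benjamini-Hochberg method, was under 0.05. Because of the added 1, a fold change of a gene near 0 TPM is understated. The liver was sequenced whole, so a change in the number of cells of a type and a change in RNA per cell cannot be told apart.

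**Figure D1:**
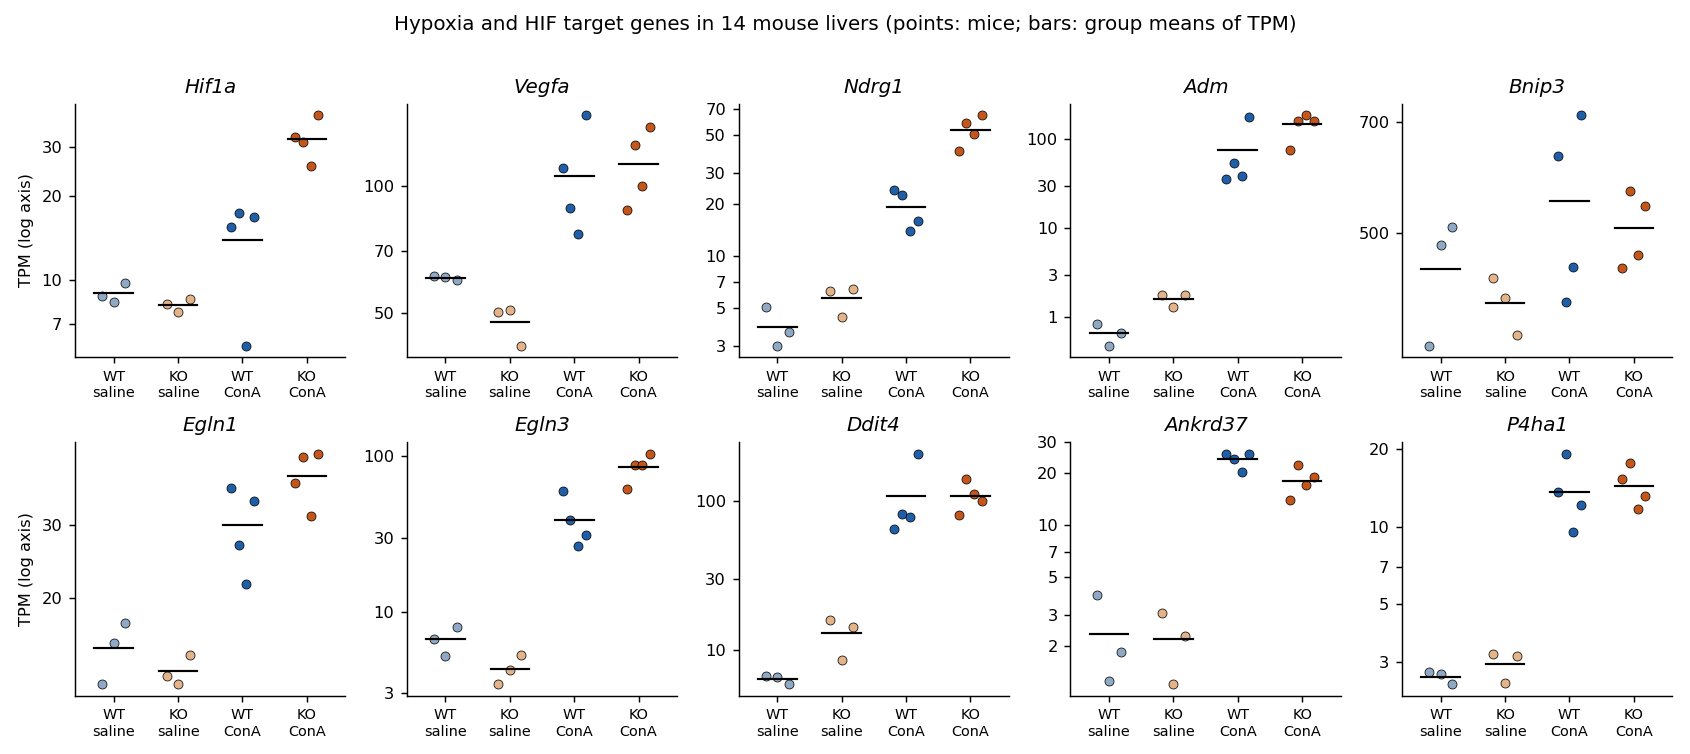
TPM of the 10 genes in each of the 14 livers on log axes, with a point for each mouse and a bar at the group mean of TPM. Hif1a in WT ConA replicate 3 (5.84 TPM) lay below all saline livers, while the other ConA livers of both genotypes lay above them.

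Hif1a (chr12:73901324-73947554) encodes the oxygen-regulated subunit of HIF-1. It had 8.79, 8.35 and 9.79 TPM in WT saline and 8.25, 7.69 and 8.60 TPM in KO saline. It had 15.5, 17.4, 5.84 and 16.8 TPM in WT ConA and 32.3, 31.1, 25.6 and 38.8 TPM in KO ConA. WT ConA replicate 3 lay below every saline liver, the other 3 WT ConA livers lay above, and all 4 KO ConA livers lay above all WT ConA livers. In KO liver Hif1a rose by 1.83 on the log2 scale (SE 0.15, adjusted p = 2.19e-06). In WT liver the difference was 0.48 (SE 0.32, adjusted p = 0.242), and without WT ConA replicate 3 it was 0.82 (adjusted p = 0.000255). KO ConA exceeded WT ConA by 1.24 (95% confidence interval 0.59 to 1.88, adjusted p = 0.0753), a difference without overlap that was not called. It was called without both ConA replicates 3 (0.99, adjusted p = 0.033) and with all 14 libraries in the fit (1.24, adjusted p = 0.011). In all, this difference was called in 3 of 16 alternatives, with adjusted p up to 0.166.

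The hydroxylase genes Egln1 and Egln3, which encode the oxygen sensors PHD2 and PHD3, rose by unlike amounts. Egln1 (chr8:124908587-124949254) had 12.4, 15.6 and 17.4 TPM in WT saline, 13.01, 12.4 and 14.6 TPM in KO saline, 36.9, 26.9, 21.6 and 34.3 TPM in WT ConA, and 37.9, 43.7, 31.5 and 44.6 TPM in KO ConA. Its ConA livers lay above all saline livers, and the genotypes overlapped within each treatment. Egln1 rose by 0.92 (SE 0.20, adjusted p = 0.00414) in WT and by 1.49 (SE 0.15, adjusted p = 8.04e-06) in KO.

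Egln3 (chr12:54178981-54203874) had 6.69, 5.20 and 7.99 TPM in WT saline and 3.41, 4.19 and 5.24 TPM in KO saline. It had 59.5, 39.1, 26.6 and 31.3 TPM in WT ConA and 62.0, 87.7, 87.6 and 104 TPM in KO ConA. Each KO ConA liver exceeded each WT ConA liver, although the lowest KO value and the highest WT value differed by under 3 TPM, and the saline groups overlapped by a sliver. Egln3 rose by 2.35 (SE 0.26, adjusted p = 7.64e-05) in WT and by 4.02 (SE 0.19, adjusted p = 3.74e-08) in KO, or 5.90-fold and 19.9-fold in mean TPM. The interaction, which is the KO response less the WT response, was 1.68 (95% confidence interval 0.94 to 2.41, adjusted p = 0.0268). The direct difference between KO ConA and WT ConA was 1.15 (SE 0.24, adjusted p = 0.0664) and was not called, and the KO saline level lay below WT saline by -0.53 (adjusted p = 0.068), which was not called either.

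The call for the interaction of Egln3 was lost with WT saline replicates 2 and 3 averaged (1.70, adjusted p = 0.0753). It was also lost without WT saline replicate 2 (1.82, adjusted p = 0.0579), WT saline replicate 3 (1.55, adjusted p = 0.0956), KO saline replicate 1 (1.55, adjusted p = 0.0853), KO saline replicate 2 (1.67, adjusted p = 0.0569) or KO ConA replicate 4 (1.57, adjusted p = 0.0554). The direct difference in Egln3 was called without WT ConA replicate 1 (1.37, adjusted p = 0.03).

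The balance between the hydroxylase genes shifted with ConA. TPM is scaled by length, so Egln3 and Egln1 can be set against each other within a library, and the ratio does not depend on how a library was scaled. Egln3 over Egln1 was 0.54, 0.33 and 0.46 in WT saline and 0.26, 0.34 and 0.36 in KO saline. It was 1.61, 1.45, 1.23 and 0.91 in WT ConA and 1.64, 2.01, 2.78 and 2.34 in KO ConA. Egln3 was thus below Egln1 in all 6 saline livers and above it in 7 of 8 ConA livers, and the KO ConA ratios lay above the WT ConA ratios with 1.61 and 1.64 as near neighbours. Hif1a over Epas1, the gene of the related subunit HIF-2α, stayed under 0.5 in all libraries, from 0.25 to 0.31 in saline livers. With ConA the ratio ranged over 0.19–0.42 in WT and 0.36–0.49 in KO.

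**Figure D2:**
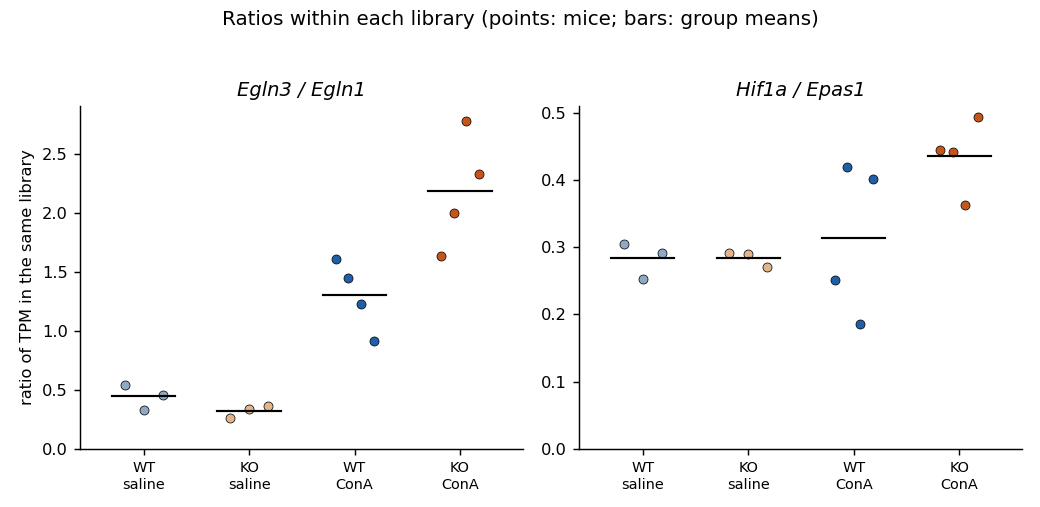
Ratio of TPM of Egln3 to Egln1 (left) and of Hif1a to Epas1 (right) within each liver, with a point for each mouse and a bar at the group mean, on linear axes from 0. Egln3 lay below Egln1 in the saline livers, at 0.26 to 0.54, and reached 2.78 in KO ConA.

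Vegfa and Adm encode secreted ligands. Vegfa (chr17:46016993-46032377), the vascular endothelial growth factor, had 61.0, 60.8 and 59.7 TPM in WT saline, 50.02, 50.7 and 41.7 TPM in KO saline, 111, 88.9, 77.0 and 148 TPM in WT ConA, and 87.8, 125, 100.4 and 138 TPM in KO ConA. All ConA livers lay above all saline livers, the KO saline livers lay below the WT saline livers, and the ConA groups overlapped. Vegfa rose by 0.76 (SE 0.20, adjusted p = 0.0119) in WT and by 1.22 (SE 0.16, adjusted p = 7.12e-05) in KO.

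Adm (chr7:110627657-110629820) encodes adrenomedullin, a peptide that widens vessels and tightens endothelial barriers. It had 0.84, 0.48 and 0.66 TPM in WT saline, 1.80, 1.29 and 1.79 TPM in KO saline, 35.1, 53.2, 38.1 and 178 TPM in WT ConA, and 76.0, 161, 184 and 160.2 TPM in KO ConA. WT ConA replicate 4 was far above its group and KO ConA replicate 1 was far below its group, so the ConA groups overlapped. Adm rose by 5.20 (SE 0.48, adjusted p = 2.7e-05) in WT and by 5.73 (SE 0.26, adjusted p = 3.55e-08) in KO, and the mean TPM rose 115-fold and 89.3-fold. In the WT comparison Adm passed the filter on low values through the ConA livers alone, so it had to differ there. The ConA groups differed by 1.19 (95% confidence interval 0.18 to 2.21, adjusted p = 0.226), which was not called, and without WT ConA replicate 4 by 1.71 (adjusted p = 0.0631).

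Ndrg1 and Ddit4 are stress-response genes. Ndrg1 (chr15:66929318-66969641), a cytoplasmic protein induced by hypoxia and differentiation, had 5.02, 3.01 and 3.62 TPM in WT saline and 6.23, 4.43 and 6.38 TPM in KO saline. It had 24.0, 22.4, 13.95 and 15.8 TPM in WT ConA and 40.1, 58.1, 50.5 and 64.8 TPM in KO ConA. The lowest KO ConA liver was well above the highest WT ConA liver. Ndrg1 rose by 2.02 (SE 0.22, adjusted p = 7.41e-05) in WT and by 3.02 (SE 0.18, adjusted p = 2.34e-07) in KO. It was the sole member called between KO ConA and WT ConA, by 1.45 (95% confidence interval 0.999 to 1.91, adjusted p = 0.0328), a 2.81-fold difference in mean TPM.

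The call of Ndrg1 between the ConA groups was lost without WT ConA replicate 4 (1.38, adjusted p = 0.0631), KO ConA replicate 2 (1.41, adjusted p = 0.0592), KO ConA replicate 3 (1.47, adjusted p = 0.0588) or KO ConA replicate 4 (1.35, adjusted p = 0.0988). It was also lost with no filter on low values (1.45, adjusted p = 0.0744) and without both ConA replicates 3 (1.34, adjusted p = 0.0674). The interaction for Ndrg1 was 0.99 (95% confidence interval 0.34 to 1.64, adjusted p = 0.0697) and was not called, while without WT ConA replicate 1 it was 1.11 (adjusted p = 0.0484).

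Ddit4 (chr10:59949675-59951770) encodes REDD1, an inhibitor of mTORC1 signaling. It had 6.65, 6.59 and 5.90 TPM in WT saline and 16.0, 8.61 and 14.2 TPM in KO saline. It had 64.2, 80.8, 77.7 and 206 TPM in WT ConA and 80.0, 140, 110 and 99.96 TPM in KO ConA. The KO saline livers lay above the WT saline livers, the ConA groups overlapped, and WT ConA replicate 4 was again the highest. Ddit4 rose by 3.71 (SE 0.35, adjusted p = 2.73e-05) in WT and by 2.97 (SE 0.22, adjusted p = 9.91e-07) in KO. KO ConA and WT ConA differed by 0.14 (95% confidence interval -0.57 to 0.84, adjusted p = 0.871), and without WT ConA replicate 4 by 0.51.

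Bnip3 (chr7:138890836-138909506) encodes a mitochondrial outer membrane receptor for mitophagy. It had 354, 482 and 508 TPM in WT saline, 435, 410.0 and 366 TPM in KO saline, 631, 405, 451 and 715 TPM in WT ConA, and 449, 567, 467 and 543 TPM in KO ConA. It was the most abundant member in every group and the one that changed least, with overlapping WT groups and with KO ConA livers just above the KO saline livers. The difference was 0.28 (SE 0.22, adjusted p = 0.321) in WT and 0.32 (SE 0.12, adjusted p = 0.0402) in KO. The KO call was lost without KO saline replicate 2 (0.34, adjusted p = 0.0821) or 3 (0.26, adjusted p = 0.126), without KO ConA replicate 2 (0.27, adjusted p = 0.112) or 4 (0.29, adjusted p = 0.102), and with rescaled libraries (0.28, adjusted p = 0.189). It was lost as well with no filter on low values (adjusted p = 0.0537) and with all 14 libraries in the fit (adjusted p = 0.14), so that Bnip3 was called in 7 of 15 alternatives. Of the 50-base stretches of its longest coding transcript, 78.1% occur in no other annotated gene, so part of its reads could belong to a copy, while the other 9 members reached 97.8% or more.

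Ankrd37 (chr8:45996908-46000414), an ankyrin-repeat gene known as a direct HIF-1 target, had 3.95, 1.26 and 1.84 TPM in WT saline, 3.08, 1.2 and 2.28 TPM in KO saline, 25.9, 24.0, 20.4 and 25.9 TPM in WT ConA, and 14, 22.1, 16.9 and 18.8 TPM in KO ConA. All ConA livers lay above all saline livers, and of the KO ConA livers only replicate 2 fell within the WT ConA range, the other 3 lying below it. Ankrd37 rose by 2.98 (SE 0.25, adjusted p = 1.47e-05) in WT and by 2.6 (SE 0.23, adjusted p = 3.02e-06) in KO. The ConA groups differed by -0.41 (95% confidence interval -0.77 to -0.05, adjusted p = 0.241), which was not called.

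P4ha1 (chr10:59323197-59373304) encodes a catalytic subunit of collagen prolyl 4-hydroxylase, which stabilises the collagen helix. It had 2.73, 2.70 and 2.46 TPM in WT saline, 3.21, 2.49 and 3.16 TPM in KO saline, 13.6, 19.1, 9.51 and 12.1 TPM in WT ConA, and 15.2, 17.6, 11.7 and 13.1 TPM in KO ConA. The genotypes overlapped in both treatments. P4ha1 rose by 1.97 (SE 0.21, adjusted p = 5.98e-05) in WT and by 1.95 (SE 0.17, adjusted p = 3.34e-06) in KO. The interaction was -0.02 (95% confidence interval -0.60 to 0.57), so differences of the response within that interval remain compatible with the values.

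**Figure D3:**
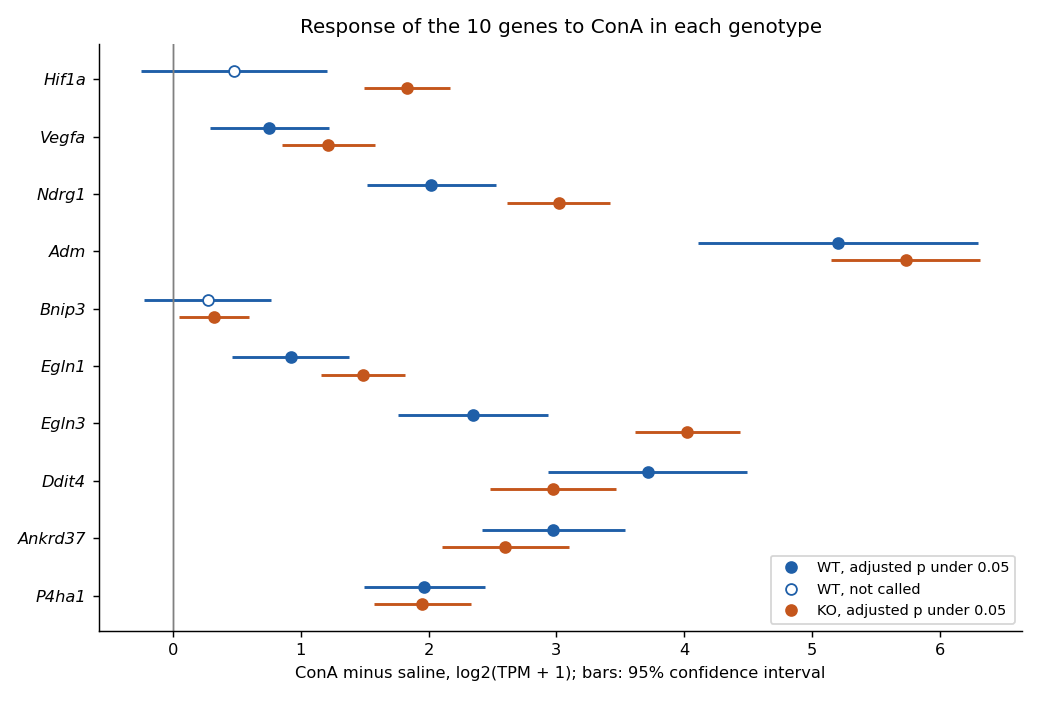
ConA minus saline on the log2(TPM + 1) scale for each gene in WT (blue) and KO (orange), with 95% confidence intervals; filled points were called at an adjusted p under 0.05. The intervals of Hif1a (-0.25 to 1.21 in WT and 1.495 to 2.17 in KO), Ndrg1 and Egln3 did not overlap between genotypes, whereas those of Ankrd37 and P4ha1 did.

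Across the group, the rise in WT liver stands against a broad change of the transcriptome. There, 8 of 10 members were called higher and 0 lower, while 53% of the 10768 genes tested were called in either direction and 22% were called higher. In KO liver 10 of 10 were called higher, against 64.6% of 10988 genes called in either direction and 33.9% called higher. The median log2 difference of the 10 members was 1.995 in WT and 2.28 in KO, against medians of -0.07 and 0.07 over all genes tested. Every member was above 0 in both comparisons. Markers of other cells moved with the same contrast. In each genotype 9 of 10 neutrophil markers were called higher, of which 5 were under 1 TPM in every saline liver and so passed the filter through the ConA livers alone. The summed neutrophil level went from 9.64–11.9 TPM in WT saline and 5.56–11.1 TPM in KO saline to 330–583 TPM in WT ConA and 429–991 TPM in KO ConA. That sum includes S100a8 at 134–253 TPM and S100a9 at 156–265 TPM in WT ConA, and at 186–452 and 197–442 TPM in KO ConA. Of the 10 neutrophil markers, Ngp was listed at 0 in all KO saline livers, and Ly6g was the one that was not called higher. Ly6g lay below 0, by -1.15 in WT (adjusted p = 0.0631) and by -0.21 in KO (adjusted p = 0.37). Of the hepatocyte markers, 7 of 10 were called lower in WT and 8 of 10 in KO, while Tat was called higher in both (0.78, adjusted p = 0.0129, and 0.56, adjusted p = 0.00305). Of 10 Kupffer cell and macrophage markers, 8 were called lower in WT (median -1.45) and 4 lower and 1 higher in KO (median -0.59). Of the red blood cell markers, 1 of 7 was called lower in WT and 5 of 6 in KO. The part of these cell markers in the rise of the 10 genes was not tested.

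Without ConA, the genotypes differed in 3 members. In KO saline, Adm was higher by 0.66 (SE 0.13, adjusted p = 0.0226), Ddit4 was higher by 0.88 (SE 0.20, adjusted p = 0.0292) and Vegfa was lower by -0.35 (SE 0.10, adjusted p = 0.046), each without overlap. The background was 19.2% of 10459 genes called in either direction and 6.3% called higher, so 2 members higher and 1 lower of 10 is close to it. With rescaled libraries the calls over all genes split into 744 higher and 771 lower, against 659 higher and 1350 lower as deposited. Adm passed the filter through the KO saline livers alone, so it had to lie higher there, and its call is no independent part of this count. All 3 calls were lost with WT saline replicates 2 and 3 averaged (Adm 0.62, adjusted p = 0.101; Ddit4 0.86, adjusted p = 0.113; Vegfa -0.35, adjusted p = 0.15), when 49 genes in all were called, and all 3 were lost without KO saline replicate 1, WT saline replicate 2 or WT saline replicate 3 (0 members called in each case). Vegfa was also lost without WT saline replicate 1 (-0.34, adjusted p = 0.0759) or KO saline replicate 2 (-0.40, adjusted p = 0.0714), and with rescaled libraries (-0.29, adjusted p = 0.119), and Ddit4 without KO saline replicate 3 (0.79, adjusted p = 0.0506). Ndrg1 became called without WT saline replicate 1 (0.62, adjusted p = 0.0401) and Egln3 without KO saline replicate 3 (-0.66, adjusted p = 0.0387). Cell markers moved beside this contrast. In all, 6 of 9 tested sinusoidal endothelial markers were higher in KO saline, with a summed level of 26.4–37.5 TPM in WT saline and 44.0–73.2 TPM in KO saline and no marker listed at 0 throughout a group. Marker counts were not refitted under the alternatives, so whether this count holds with WT saline replicates 2 and 3 averaged was not tested. All 10 Kupffer cell and macrophage markers lay below 0 (median -0.56) and the 5 tested red blood cell markers above 0 (median 1.41), with 0 called by limma in either list and 3 and 1 at an unadjusted p under 0.05. The red blood cell sum ranged over 1623–3863 TPM in WT saline and 2769–17133 TPM in KO saline, where Hba-a1 was at 6225, 932 and 1537 TPM. KO saline replicate 1, the library with the highest Hba-a1, was the highest of its group for 5 members, among them Adm and Ddit4. Without it the differences were 0.61 for Adm, 0.715 for Ddit4 and -0.39 for Vegfa, and 286 genes in all were called. The part of these markers in the differences was not tested.

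With ConA, 1 of 10 members, Ndrg1, was called higher in KO than in WT and 0 were called lower. The background was small, since 0.428% of 10519 genes were called in either direction and 0.342% were called higher. Over all genes 36 were higher and 9 lower, and with rescaled libraries 12 were higher and 13 lower. Among the 10, 5 had an unadjusted p under 0.05, and 3 (Hif1a, Ndrg1, Egln3) had KO ConA livers all above the WT ConA livers. The shares of all genes tested that met these 2 measures were not computed. Such counts, for the members as for the gene lists and markers, therefore stand without a background. For the interaction, 1 of 10 members, Egln3, was called with a larger response in KO, against 4.78% of 11327 genes called in either direction and 2.64% called with a larger response in KO. The median of all genes in the interaction was itself 0.14, and with rescaled libraries it was 0.03, where Egln3 had 1.55 (adjusted p = 0.0367) and Hif1a had 1.23 (adjusted p = 0.0433). As deposited, Hif1a had an interaction of 1.35 (95% confidence interval 0.54 to 2.17, adjusted p = 0.053), and leaving out WT ConA replicate 3 gave 1.01 (adjusted p = 0.0156). It was also called without WT ConA replicate 2 (1.49, adjusted p = 0.0412), WT ConA replicate 4 (1.47, adjusted p = 0.0388) or KO ConA replicate 3 (1.45, adjusted p = 0.0454). In all, the interaction of Hif1a was called in 7 of 22 alternatives, with adjusted p up to 0.143. These comparisons share livers with one another, so their values stand side by side and are not independent. Between KO ConA and WT ConA, limma called 0 of 10 neutrophil markers, of which 7 had an unadjusted p under 0.05 and 9 had a difference above 0, with a median of 0.68. Differences above 0 were found for 7 of 7 sinusoidal endothelial and 5 of 7 Kupffer cell and macrophage markers (medians 0.29 and 0.36). They were found for 5 of 10 hepatocyte and 1 of 7 red blood cell markers (medians -0.005 and -0.37), with 0 called in these lists. The part of these cell markers in the differences of the members was not tested.

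**Figure D4:**
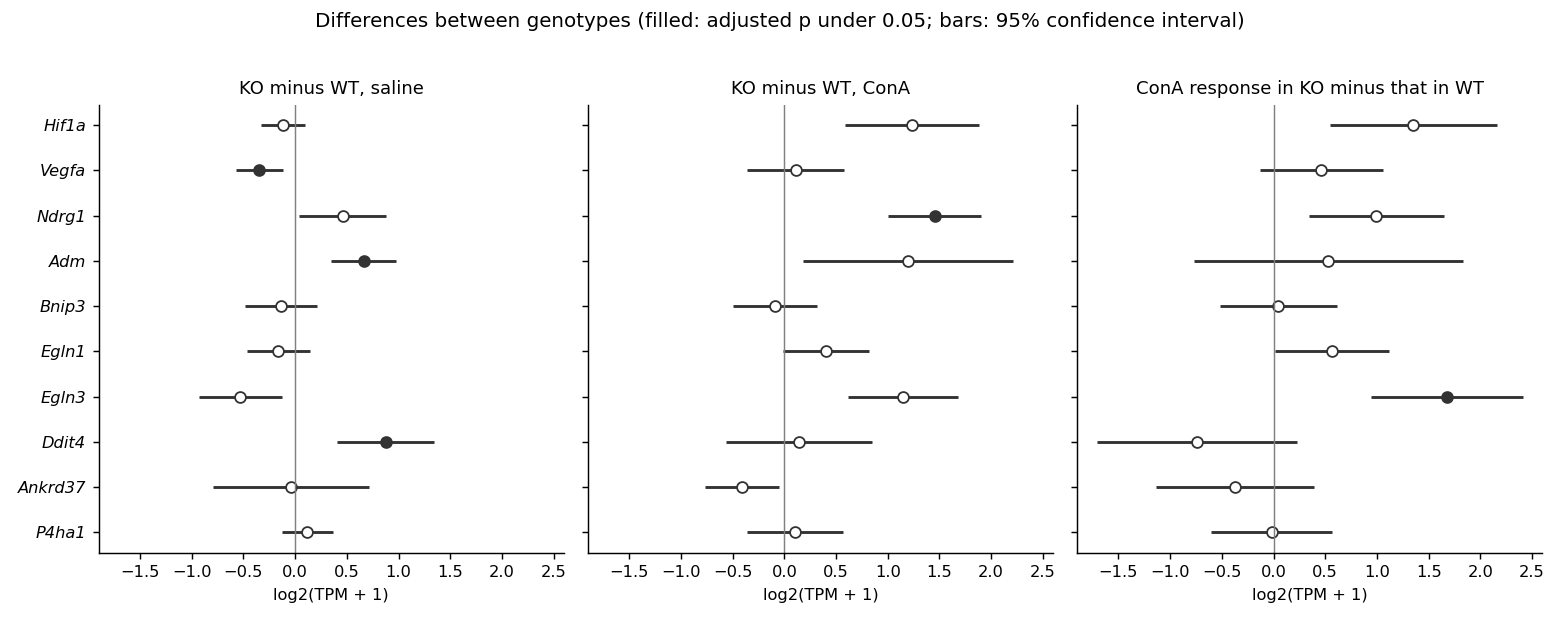
Differences between genotypes on the log2(TPM + 1) scale for each gene, with 95% confidence intervals: KO minus WT in saline (left), KO minus WT in ConA (middle), and the KO response less the WT response (right). Filled points were called at an adjusted p under 0.05, which are Vegfa, Adm and Ddit4 on the left, Ndrg1 in the middle and Egln3 on the right.

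The order of the levels changed with ConA. In WT saline the mean TPM ran from Bnip3 (448) and Vegfa (60.5) through Egln1 (15.1), Hif1a (8.98), Egln3 (6.63), Ddit4 (6.38), Ndrg1 (3.88), P4ha1 (2.63) and Ankrd37 (2.35) to Adm (0.66). Neighbours in that order did not overlap except Egln3 with Ddit4 and P4ha1 with Ankrd37. In KO ConA the order was Bnip3 (507), Adm (145), Vegfa (113), Ddit4 (107), Egln3 (85.4), Ndrg1 (53.4), Egln1 (39.4), Hif1a (32.0), Ankrd37 (17.96) and P4ha1 (14.4), and here neighbours overlapped except Bnip3 with Adm and Hif1a with Ankrd37. Adm thus went from the last place in both saline groups to the fourth in WT ConA and to the place after Bnip3 in KO ConA.

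Single livers also stood out across members. WT ConA replicate 3 was the lowest of its group for 7 of the 10 genes and replicate 4 the highest for 5, among them Adm and Ddit4. KO ConA replicate 1 was the lowest of its group for 7 genes. After the group means were taken off, the closest pair over the 14 libraries was Adm and Ddit4 (Pearson r = 0.90), followed by Vegfa and Bnip3 (0.78), Bnip3 and Egln1 (0.76) and Ndrg1 and Egln3 (0.75). Egln3 and Ddit4 gave -0.24. These coefficients describe livers of 4 groups that share library composition.

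Among 11327 genes with TPM of 1 or more in at least 3 libraries, the genes most like each member were ranked by Pearson r of log2(TPM + 1) over the 14 libraries. They were Fermt2 and Fem1c for Hif1a (0.99 and 0.98), Pnrc1 and Mettl21a for Vegfa (0.97 and 0.96), Myh9 and Chka for Ndrg1 (0.98 each), and Btg3 and Rtn4rl2 for Adm (0.99 each). They were G3bp1 and Aebp2 for Egln1 (0.98 each), Gna13 and D10Wsu102e for Egln3 (0.99 each), Adm and Cebpd for Ddit4 (0.98 each), Rrbp1 and Oasl2 for Ankrd37 (0.98 each), and Nudt5 and Gbp9 for P4ha1 (0.99 each). Bnip3 had no gene as close, with Rrm2 at 0.84 and Lbr at 0.78. The ConA contrast is shared by most of these genes.

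Of 14 tested genes of the oxygen-sensing machinery, 2 were called higher and 0 lower in WT, and 7 higher and 2 lower in KO, where 22% and 33.9% of all genes tested were called higher. The median log2 difference was 0.13 in WT and 0.45 in KO. The WT count rested on WT ConA replicate 3, since without it 6 genes were called higher and 1 lower. Cited2, a HIF-induced inhibitor of the p300 coactivator, rose by 2.74 in WT (adjusted p = 2.67e-05) and by 3.82 in KO (adjusted p = 3.92e-07), and Vhl rose by 1.35 (adjusted p = 0.00143) and 2.05 (adjusted p = 1.36e-06). Epas1 had 28.8, 33.1 and 33.6 TPM in WT saline, 28.3, 26.5 and 31.9 TPM in KO saline, 61.9, 41.5, 31.7 and 41.9 TPM in WT ConA, and 72.9, 70.4, 70.8 and 78.6 TPM in KO ConA. Its KO ConA values lay above all WT ConA values. Epas1 rose by 1.31 in KO (adjusted p = 3.08e-06), differed by 0.43 in WT (adjusted p = 0.111), and had an interaction of 0.89 (SE 0.24, adjusted p = 0.0471), which was 1 of 2 called in this list. The other was Elob, of opposite sign, at -1.17 (adjusted p = 0.0213). Over all genes tested 4.78% of interactions were called in either direction. Averaging WT saline replicates 2 and 3 left 0 interactions of this list called. So did fits without WT saline replicate 2, WT saline replicate 3, KO saline replicate 1 or KO saline replicate 2. No gene of the list kept a called larger response in KO with a pseudocount of 0.1, with no filter, with rescaled libraries, or without WT saline replicate 1, KO saline replicate 3, WT ConA replicate 2 or KO ConA replicate 1, 2 or 4. The partner gene Arnt rose by 1.08 in KO (adjusted p = 4.66e-05) and differed by 0.23 in WT (adjusted p = 0.418). The asparaginyl hydroxylase gene Hif1an differed by 0.11 in WT (adjusted p = 0.661) and rose by 0.58 in KO (adjusted p = 0.036), and Egln2, the third hydroxylase, differed by 0.01 in WT (adjusted p = 0.966) and rose by 0.54 in KO (adjusted p = 0.00432). Hif3a stayed between 0.01 and 0.10 TPM and was not tested.

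Most HIF target genes of glycolysis and glucose uptake were higher after ConA. Of 20 tested, 16 were called higher and 1 lower in WT, and 16 higher and 2 lower in KO. Over all genes 22% and 33.9% were called higher. The median log2 difference of the list was 1.54 and 1.96, against -0.07 and 0.07 over all genes. Of the genes called higher, 5 in WT and 4 in KO were under 1 TPM in every saline liver of that genotype, passed the filter through the ConA livers alone and so had to differ. Pkm, the pyruvate kinase gene of proliferating and muscle cells, rose by 4.02 (adjusted p = 5.31e-07) in WT, Pfkl by 2.56 (adjusted p = 5.55e-07) and Aldoa by 1.88 (adjusted p = 7.32e-06). Ldha, which makes lactate from pyruvate, rose by 2.06 in WT (adjusted p = 1.65e-05) and 3.18 in KO (adjusted p = 1.39e-07), and Pgk1 by 0.82 (adjusted p = 0.00781) and 1.90 (adjusted p = 1.01e-06). Pdk1, a kinase that holds pyruvate back from mitochondria and a textbook HIF target, fell by 1.01 in WT (adjusted p = 0.00708) and by 1.13 in KO (adjusted p = 0.000189).

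The glucose transporter gene Slc2a1 was among the few genes of this list that differed between genotypes. It had 7.37, 8.64 and 8.95 TPM in WT saline, 6.44, 4.96 and 6.65 TPM in KO saline, 35.6, 33.8, 23.6 and 36.5 TPM in WT ConA, and 58.2, 70.4, 106 and 94.3 TPM in KO ConA. All KO ConA livers lay above all WT ConA livers. Slc2a1 was higher in KO ConA by 1.3 (SE 0.21, adjusted p = 0.0369) and Pkm by 0.88 (SE 0.15, adjusted p = 0.0369), which were the 2 of 20 genes called, while Ldha differed by 0.55 (adjusted p = 0.115). Over all genes tested between the ConA groups, 0.428% were called in either direction. Interactions were called for Slc2a1 (1.71, adjusted p = 0.0115), Ldha (1.13, adjusted p = 0.0343) and Pgk1 (1.08, adjusted p = 0.0355), 3 of 21 tested, against 4.78% of all genes. The count between the ConA groups fell to 1 without WT ConA replicate 1 or KO ConA replicate 1, and to 0 without any other single ConA library, with rescaled libraries, with no filter and without both ConA replicates 3, whereas with all 14 libraries in the fit 6 genes were called higher and 1 lower. The count of interactions fell to 0 without WT saline replicate 3, and to 1 with WT saline replicates 2 and 3 averaged, with rescaled libraries, with no filter, and without WT saline replicate 2, KO saline replicate 1 or 2, or KO ConA replicate 2 or 4.

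Of 24 other HIF targets tested in WT, 13 were called higher and 2 lower, and of 25 tested in KO, 19 were called higher and 0 lower, against 22% and 33.9% of all genes called higher. Of those called higher, 3 in WT and 5 in KO were under 1 TPM in every saline liver and had to differ. Among them Nos2, the inducible nitric oxide synthase, was at 0.04, 0.02 and 0.06 TPM in WT saline and 37.2, 26.2, 45.6 and 37.0 TPM in WT ConA. Hmox1, the heme oxygenase, rose in WT by 4.44 (adjusted p = 1.07e-06), and Ero1a, an oxidase of the endoplasmic reticulum, by 3.22 (adjusted p = 9.15e-07). These genes also answer to inflammatory signals. Between the ConA groups, 0 of 25 were called by limma, while 8 had an unadjusted p under 0.05, and Wsb1 (1.15, adjusted p = 0.0675), Ero1a (0.73, adjusted p = 0.0718) and Bhlhe40 (0.97, adjusted p = 0.0947) came nearest. Car9 stayed between 0 and 0.47 TPM. Epo, the erythropoietin gene, was listed at 0 in all 6 saline livers, at 1.05, 0.23, 0.74 and 1.88 TPM in WT ConA, and at 0, 0.48, 0.64 and 0.23 TPM in KO ConA, below the level that was tested.

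Receptors of the secreted ligands showed no common direction. Of 7 tested ligands and receptors other than Vegfa and Adm, 0 were called higher and 3 lower in WT (Kdr -0.92, adjusted p = 0.000484; Ramp1 -1.06, adjusted p = 0.00219; Vegfb -0.67, adjusted p = 0.00585). Kdr and Ramp1 were under 1 TPM in every ConA liver of both genotypes, passed the filter through the saline livers alone and so had to differ. Averaging WT saline replicates 2 and 3 or leaving out any 1 WT saline library brought 2 genes called higher, and leaving out WT ConA replicate 3 brought 1. Of 12 tested in KO, 4 were called higher and 6 lower. Of these, 1 called higher (Adm2) and 2 called lower (Kdr and Ramp1) passed the filter through 1 group alone and had to differ. Over all 10768 genes tested in WT, 2368 were called higher and 3336 lower. In KO the counts over 10988 genes were 3723 higher and 3376 lower. Kdr, the main endothelial VEGF receptor gene, fell by 1.58 in KO (adjusted p = 5.37e-05), and Flt1, a VEGF receptor that also acts as a decoy, rose by 0.63 (adjusted p = 0.0245). The adrenomedullin receptor genes Calcrl and Ramp2 fell by 0.64 (adjusted p = 0.038) and by 2.07 (adjusted p = 0.000177) in KO. In KO saline Ramp2 stood at 11.8, 7.65 and 8.58 TPM, against 4.41, 1.55 and 1.66 TPM in WT saline (1.62, adjusted p = 0.0193), so the KO fall began from a higher level in these libraries. In saline 2 of 9 genes of the list were called higher, and 0 were with WT saline replicates 2 and 3 averaged or without WT saline replicate 2, WT saline replicate 3 or KO saline replicate 1. Between the ConA groups 0 of 8 were called by limma and 3 had an unadjusted p under 0.05, with Nrp2 (0.86, adjusted p = 0.0667), Flt1 (0.63, adjusted p = 0.192) and Ackr3 (0.51, adjusted p = 0.235) nearest.

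**Figure D5:**
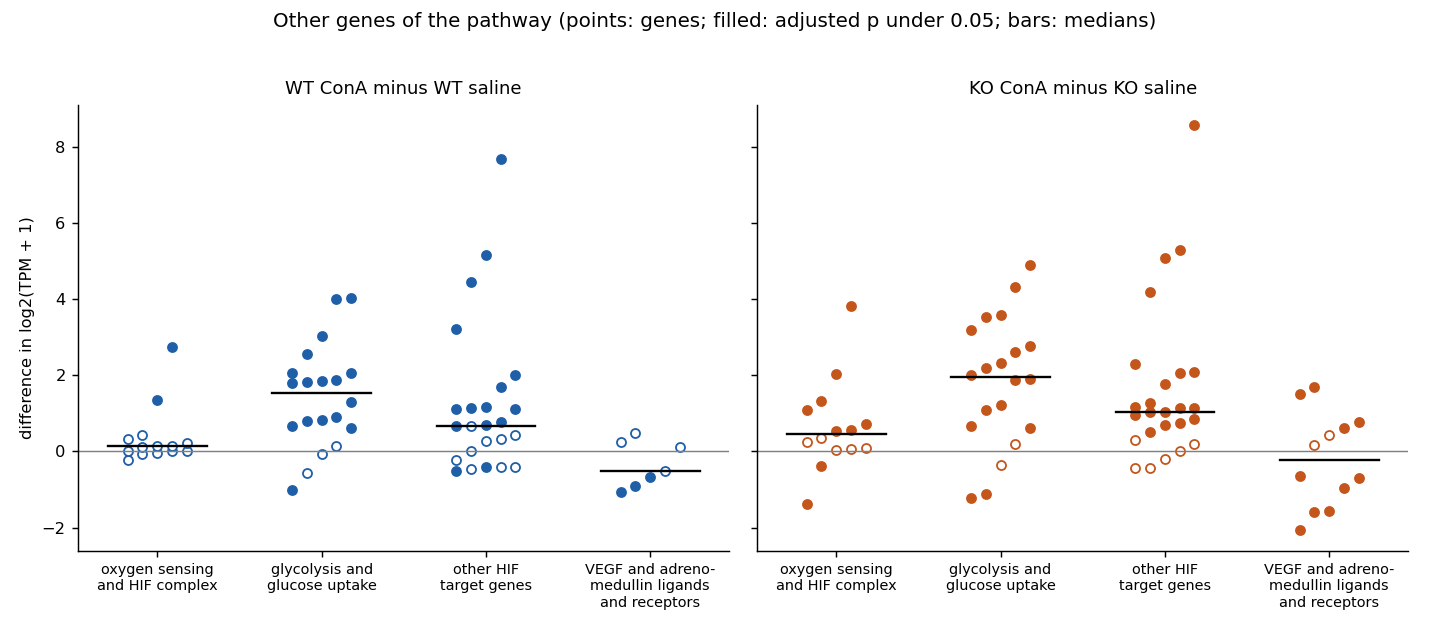
Difference between ConA and saline on the log2(TPM + 1) scale for the tested genes of 4 lists of the pathway, in WT (left) and KO (right), with a point for each gene, filled where called at an adjusted p under 0.05, and a bar at the median. The glycolysis list had medians of 1.54 and 1.96, and the ligand and receptor list lay around 0 with medians of -0.50 and -0.23.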

How the data were processed

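Liver RNA of 14 mice was read from 1 end, at 50 bases, on the BGISEQ-500 sequencer. The authors deposited 1 table per mouse with a TPM value per gene. The submitters' processing notes name Bowtie2, RSEM 1.3.1 and the mouse build GRCm38.p6, while the study's methods name STAR and HTSeq, and which of them made these values was not resolved. TPM keeps no read number, so the depth behind a value is unknown, the count test of the study's methods could not be used, and no counting interval is given. Each library summed to 1000000 or 1000001, and 2230 to 2701 of 17656 genes were listed at 0.

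Groups came from the labels. For each of 4 pairs of groups and for the interaction of genotype and ConA, limma 3.58.1 (R 4.3.3; eBayes with trend, two-sided) was run on log2(TPM + 1) over all genes with TPM of 1 or more in as many libraries as the smallest group held, with Benjamini-Hochberg adjustment over all genes tested and a threshold of 0.05. Tables and plots were made with Python 3.11.15, pandas 2.3.3 and matplotlib 3.10.9. The code was tested on simulated data. Promoter windows were RefSeq sequence of GRCm38.p6, the build of the files. Named genes were the 10 members, set genes of the pathway, from each list the 3 lowest by p for the ConA response of WT and the 3 lowest for the genotype difference with ConA, and the 2 genes most correlated with each member. 1 gene that this rule names is not reported here. Members and lists were chosen with earlier results of these data known.

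Replicate numbers recur across groups. Correlations of deviations between same-numbered libraries ran from -0.189 to 0.405, and nothing in the labels ties a number to a litter or day, so the samples were treated as unpaired. As alternatives, the pseudocount was set to 0.1, the filter to TPM of 5 or none, and libraries were rescaled by the median over genes of their ratio to the geometric mean. Further ones were a fit of all 14 libraries at once, a robust fit, a replicate block, WT saline replicates 2 and 3 averaged, both ConA replicates 3 left out, and each library left out in turn.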

Additional observations from a re-analysis of the deposited data

Results flagged for a closer look

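Among the 10 genes in the groups of 4, single livers stood apart in 2 cases on the log2(TPM + 1) scale, judged by Dixon's test, which takes the gap to the nearest liver as a share of the group's range. Hif1a in WT ConA replicate 3 was 5.84 TPM, with a gap of 0.894 of the log2 range and 0.841 of the TPM range. Adm in KO ConA replicate 1 was 76.0 TPM, with a gap of 0.841 of the log2 range and 0.777 of the TPM range, which does not pass on the TPM scale. On that scale WT ConA replicate 4 stood apart instead for Adm (178 TPM, gap of 0.873) and for Ddit4 (206 TPM, gap of 0.883). Chance alone flags about 1 in 20 groups.

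The response of Egln3 to ConA differed between genotypes, with an interaction of 1.68 on the log2 scale. The livers that decide this call are named beside the values of Egln3.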

How the results depend on the processing

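The rise after ConA kept its count of called members under each alternative, 8 to 9 in WT and 9 to 10 in KO, leaving out single libraries included. The counts between genotypes did not. For KO saline against WT saline (3 members), 1 was called with no filter, 0 with all 14 libraries in the fit, 5 with the replicate block, 0 after averaging WT saline replicates 2 and 3, and 0 to 3 with single libraries left out. For KO ConA against WT ConA (1 member), 0 were called with no filter, 3 with all 14 libraries, 2 with the replicate block, and 0 to 2 with single libraries left out. For the interaction (1 member), 2 were called with a filter at TPM of 5, 2 with rescaled libraries, 0 with WT saline replicates 2 and 3 averaged, 2 without both ConA replicates 3, and 0 to 2 with single libraries left out.

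The replicate block added Ndrg1 (0.46, adjusted p = 0.037) and Egln3 (-0.53, adjusted p = 0.0354) in saline and Hif1a (1.24, adjusted p = 0.048) between the ConA groups, and it ended the call of Bnip3 in KO (0.29, adjusted p = 0.154). It changed no other member's call, and in ConA against saline it leaves replicate 4, which has no saline partner, without weight. Over all genes, the 2009 calls in saline became 958 with no filter, 332 with all 14 libraries, 49 with the averaged pair and 45 to 2739 with single libraries left out. The 45 calls between the ConA groups became 3 with no filter, 25 with rescaled libraries, 640 with all 14 libraries, 140 with the block and 5 to 52 with single libraries left out. The 541 interactions became 345 with no filter, 358 with the block, 28 with the averaged pair, 1591 without both ConA replicates 3 and 22 to 769 with single libraries left out.

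The sign turned for differences that were not called. With rescaled libraries Ankrd37 in saline was 0.004 and the interaction of Bnip3 was -0.091, which was -0.032 with the averaged pair. With single libraries left out, the ranges that crossed 0 were -0.28 to 0.28 for Ankrd37 in saline, -0.05 to 0.51 for Ddit4, -0.026 to 0.28 for Vegfa, -0.042 to 0.27 for P4ha1 and -0.22 to 0.05 for Bnip3 between the ConA groups, and -0.087 to 0.21 for Bnip3 and -0.16 to 0.15 for P4ha1 in the interaction. Of the refitted member differences, 746 kept direction and side of the threshold, 41 lost the call, 19 gained it and 21 turned. The cause of these changes was not tested. Depth limits cannot be set from TPM, and the groups of 3 and 4 livers leave wide intervals between genotypes.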
